A study of Homo sapiens with 16 samples.

Results

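The response to enzalutamide was described across all 16 total RNA libraries of LNCaP cells, a prostate adenocarcinoma line that depends on androgen signalling. Each enzalutamide library was set against the DMSO library of its genotype and replicate number, which gave 8 pairs, 4 in each genotype. Of 21810 genes with enough counts to test, 2988 (13.7%) differed in the same direction in all 8 pairs. These genes are described here, together with the test of the drug effect averaged over the genotypes.

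The 4 groups were wild-type (WT) cells in DMSO, WT cells in enzalutamide (EZ), RB-p53 double knockout (DKO) cells in DMSO, and DKO cells in EZ, with 4 replicates each. EZ was given at 50 µM for 6 days against an equal volume of DMSO, and all cells were grown in medium with fetal bovine serum. The DKO cells had been made with CRISPR-Cas9, and the labels do not say whether they were 1 clone or whether replicates were separate cultures. P-values therefore measure the spread between these libraries, which may be partly technical.

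Enzalutamide binds the androgen receptor in place of androgen and hinders its move to the nucleus and its binding to DNA. In luminal prostate cells the receptor drives secretory products such as kallikreins, and also lipid synthesis and cell growth, while it holds other genes down. RB and p53 restrain the cell cycle, and their joint loss in prostate cancer is known for resistance to drugs of this kind.

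Total counts ran from 11823438 to 47678648 per library. RB1, targeted by the knockout, had between 95.6 and 128 CPM (the usual depth-scaled unit of read counts, here also scaled by TMM, the trimmed mean of M-values) in the 8 WT libraries. It had between 9.04 and 13.4 CPM in the 8 DKO libraries, so the ranges did not overlap and the labels held. Summed over 13 luminal prostate markers, the level was 4840 to 7580 CPM in DMSO and 4210 to 8620 CPM in EZ. Leukocyte markers summed to at most 0.732 CPM in DMSO and 0.378 CPM in EZ, and CD3E was at 0 in every library. Pairs 1 of WT and 1 and 2 of DKO stood apart by a high level of RN7SL1, the RNA of the signal recognition particle, with 2201 to 6207 unscaled CPM against 481.1 to 1166 in the other 10 libraries. Mitosis genes were low in WT DMSO replicate 4, WT EZ replicate 1 and DKO EZ replicate 1. In bulk RNA, fewer cells of a kind and less RNA per cell cannot be told apart.

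Of the 2988 genes, 1733 were higher in EZ in all 8 pairs (7.95% of those tested) and 1255 were lower (5.75%). The averaged effect passed the threshold of 0.05 in edgeR's quasi-likelihood test, with pairs as blocks and Benjamini-Hochberg adjustment, for 4565 genes (20.9%). Of these, 2660 were higher (12.2%) and 1905 lower (8.73%). These shares are the background for every count of list members given below. The test and the signs come from the same libraries, so neither supports the other. Among genes with 1 direction in all pairs, 1575 of the 1733 higher and 1060 of the 1255 lower passed the test, while 1930 genes passed it without sharing a sign in all pairs. The median change was 0.43 on the log2 scale for the genes higher in all pairs and -0.51 for those lower in all pairs, against -0.021 for all tested genes.

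The balance between the directions moved with the scaling of the libraries. With TMM, 58.3% of the genes past the threshold were higher, against 45.6% with upper-quartile scaling and 43.6% with library totals. With library totals, 1402 genes were higher and 1619 lower in all 8 pairs. The median of all genes shifted from -0.021 to -0.077 with library totals, so averaged changes smaller than this difference have no firm sign. A single pair can shift by more, since TMM factors differed within pairs, as in WT pair 1 (0.9316 in DMSO, 0.8317 in EZ). Of the 2988 genes, 2450 again had 1 sign in all pairs with library totals, and 3926 of the 4565 genes passed again. The 3 pairs with high RN7SL1 and the 5 others were each fitted with 1 drug term for both genotypes, here and wherever they are named, so the model changed along with the pairs. Fewer libraries also leave less power, so a call lost there does not by itself mean a smaller change. For the 3 pairs 2593 genes passed the threshold, and for the 5 pairs 2729 did, against 4167 with that model in all 8 pairs. Of the 4565 genes, 1600 passed again in the first set and 2314 in the second, and 53 had the other sign in the first set. Without the first pair of both genotypes, 4460 genes passed, of which 3571 were shared.

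**Figure D1:**
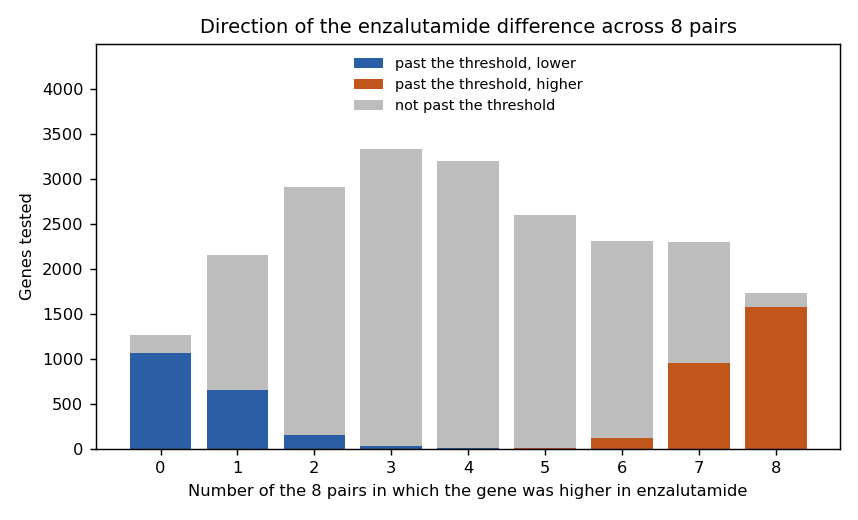
Number of tested genes (vertical axis) by how many of the 8 pairs were higher in EZ (horizontal axis), coloured by the edgeR call for the averaged effect. The column at 8 holds 1733 genes, of which 1575 passed as higher, and the column at 0 also holds 10 genes with a difference of exactly 0 in some pair.

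The highest rise among the named genes was in SPRY4 (chr5:142310427-142326455, GENCODE v29 on GRCh38), which encodes a Sprouty protein that dampens receptor tyrosine kinase signalling to MAP kinase. Its level in WT cells was 1.1, 0.357, 0.348 and 0.457 CPM in DMSO replicates 1 to 4 and 48.2, 24.0, 25.2 and 6.61 CPM in EZ. In DKO cells it was 0.296, 0.0425, 0.216 and 0.296 CPM in DMSO and 5.39, 2.05, 2.69 and 1.74 CPM in EZ. Every EZ library was above every DMSO library, and WT cells reached higher levels in EZ than DKO cells. The averaged log2 fold change was 4.51 ± 0.27 (SE, adjusted p = 9.92e-06), and the difference of the effect between genotypes did not pass the test (-1.90 ± 0.63, adjusted p = 0.368). No other measured Sprouty or SPRED gene passed: SPRY1, SPRY2, SPRY3 and SPRED1 to SPRED3 had averaged log2 changes from -0.06 to 0.44. In the fixed list of MAP kinase feedback genes, 3 of 20 were higher (15%, against 12.2% of all tested genes) and 1 lower (5%, against 8.73%), with a median of 0.07. The lower one was DUSP4, a phosphatase of MAP kinases, at -1.25 ± 0.10 and below its DMSO partner in all pairs.

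The ID genes rose together. They encode helix-loop-helix proteins that hold back differentiation factors and are textbook targets of bone morphogenetic protein (BMP) signalling. ID1 had 1.62 to 7.68 CPM in DMSO (median 2.79) and 8.01 to 93.7 CPM in EZ (median 31.8), with no overlap. ID3 had 2.12 to 5.37 CPM in DMSO (median 3.59) and 15.4 to 94.1 CPM in EZ (median 28.1), again with no overlap. The averaged log2 fold changes were 3.32 ± 0.20 for ID1 (adjusted p = 1.97e-05) and 3.24 ± 0.32 for ID3 (adjusted p = 0.000723). ID2 rose by 1.65 ± 0.28 in all 8 pairs, and ID4 by 2.23 ± 0.32 in 7 pairs from a median of 0.276 CPM.

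Of 23 measured genes in the list of BMP signalling and ID genes, 11 passed as higher (47.8%, against 12.2% of all tested genes). Only 1 passed as lower (4.35%, against 8.73%), and 7 were higher in all 8 pairs, as were 7.95% of all tested genes. The list's median was 0.40, with all 8 pair medians above 0. The inhibitory SMADs, which are feedback inhibitors of the pathway, were among those that rose: SMAD6 by 1.16 ± 0.13 and SMAD7 by 0.76 ± 0.09. The receptor gene BMPR2 rose by 0.40 ± 0.08, whereas the receptor gene BMPR1B was the lower one at -0.47 ± 0.14. The BMPR1B call did not hold without the block (adjusted p = 0.382) or without pair 1 or 3 of either genotype, WT pair 4 or DKO pair 2 (adjusted p = 0.0536 to 0.0955). BMPR2 was at 0.17 in the 3 pairs with high RN7SL1 and did not pass there (adjusted p = 0.433). The ligand gene BMP7 rose by 1.10 ± 0.28 in 7 pairs, and without WT pair 1 it did not pass (adjusted p = 0.0548). In the 3 pairs with high RN7SL1 the median was 0.83, and in the 5 others 0.51.

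Other leading genes that rose in all pairs belonged to varied classes. ADRA2A, an adrenergic receptor, had 1.33 to 18.4 CPM in DMSO and 19.6 to 89.2 CPM in EZ, an averaged change of 3.20 ± 0.17 (adjusted p = 7.84e-06). Its change was 3.19 in the 3 pairs with high RN7SL1 and did not pass there (adjusted p = 0.198). IGFBP3, a secreted binder of insulin-like growth factors, had 8.31 to 25.8 CPM in DMSO and 46.8 to 399 CPM in EZ, a change of 2.79 ± 0.61 (adjusted p = 0.0234). GPNMB, a glycoprotein of lysosome-related membranes, rose by 2.41 ± 0.53 (adjusted p = 0.0232), but its smallest pair difference was only 0.01. The calls of IGFBP3 and GPNMB were each lost when any of 4 pairs was left out (replicates 2 and 3 of either genotype), with adjusted p from 0.0581 to 0.0682. GPNMB also did not pass without both first pairs (adjusted p = 0.0513) or in the 5 pairs with low RN7SL1 (adjusted p = 0.0889). MATN2, an extracellular matrix protein, rose by 2.29 ± 0.22 and MID1, a microtubule-bound ubiquitin ligase, by 2.23 ± 0.30. AMOTL1, a junction protein that binds YAP, rose by 2.19 ± 0.20, AIDA by 2.11 ± 0.12 and MYOZ1 by 2.10 ± 0.18. In the 3 pairs with high RN7SL1, MID1 at 1.22 (adjusted p = 0.213), IGFBP3 at 4.10 (0.186), GPNMB at 3.46 (0.128) and AMOTL1 at 1.76 (0.101) did not pass, and in the 5 others MYOZ1 at 1.66 did not (0.0896).

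**Figure D2:**
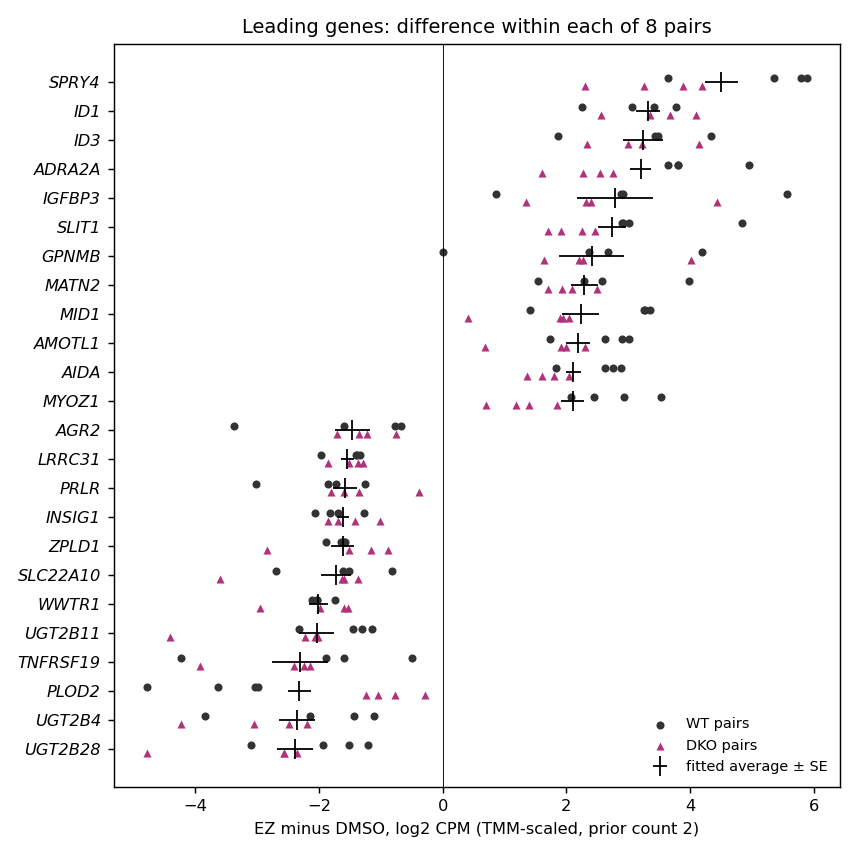
Difference of EZ minus DMSO (log2 CPM, horizontal axis) in each of the 8 pairs for the 12 highest and 12 lowest named genes, with WT pairs as circles, DKO pairs as triangles, and the fitted average ± SE as crosses. All points of a gene lie on 1 side of 0, and the WT and DKO points of PLOD2 do not overlap.

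Axon guidance genes encode secreted and membrane cues that also steer migration outside the nervous system. Of 45 measured members, 14 passed as higher (31.1%, against 12.2% of all tested genes) and 4 as lower (8.89%, against 8.73%). In all pairs 11 were higher and 1 lower. The median was 0.14, with all 8 pair medians above 0. SLIT1, a repulsive ligand, had 3.29 to 14 CPM in DMSO (median 6.29) and 26.4 to 96.3 CPM in EZ (median 35.9), a change of 2.74 ± 0.23 with no overlap. Among semaphorins, another class of ligands, SEMA3C rose by 1.87 ± 0.07, SEMA6A by 1.52 ± 0.16 and SEMA3F by 0.88 ± 0.07, whereas SEMA3B fell by 0.39. Their co-receptors NRP2 and NRP1 rose by 1.69 ± 0.31 and 0.81 ± 0.14. The ephrin ligands parted: EFNA5 rose by 0.98 ± 0.07, and EFNB2 fell by 0.69 in 7 of 8 pairs. The EFNB2 call was lost without pair 2 or 3 of either genotype (adjusted p = 0.0554 to 0.0813). In the 3 pairs with high RN7SL1 the changes of SLIT1 (3.10, adjusted p = 0.206), SEMA3C (1.53, 0.107), SEMA6A (1.89, 0.0783) and EFNA5 (0.72, 0.0718) did not pass. There SEMA3B (-0.22, adjusted p = 0.409) and NRP1 (0.36, 0.195) did not pass either.

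The promoter sequences below belong to cholesterol genes, a list whose median was lower in every pair, and are shown so that shared letters can be read beside their values. The stretches are from RefSeq (GRCh38.p14), lie before the annotated start and read 5′ to 3′ on the gene's strand. Capitals mark CCAAT (or ATTGG on the other strand) and the sterol regulatory element letters TCACNCCAC, both searched on both strands. CCAAT was added after the values were seen. INSIG1 is at chr7:155297688-155297732 (plus strand), HMGCS1 at chr5:43313488-43313587 (minus), MVK at chr12:109573564-109573772 (plus) and SREBF2 at chr22:41832952-41833023 (plus).
INSIG1: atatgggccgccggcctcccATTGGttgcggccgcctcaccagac
HMGCS1: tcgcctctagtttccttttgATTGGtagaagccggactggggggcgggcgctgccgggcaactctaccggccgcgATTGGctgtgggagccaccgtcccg
MVK: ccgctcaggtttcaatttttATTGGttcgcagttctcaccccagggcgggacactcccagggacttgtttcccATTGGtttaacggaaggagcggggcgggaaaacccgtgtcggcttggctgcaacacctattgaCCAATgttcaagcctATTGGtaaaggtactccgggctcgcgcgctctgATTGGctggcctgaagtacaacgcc
SREBF2: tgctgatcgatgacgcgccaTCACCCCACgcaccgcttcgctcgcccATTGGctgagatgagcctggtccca

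Cells sense sterols in the endoplasmic reticulum, where INSIG1 holds back the precursor of the transcription factor SREBP-2, the product of SREBF2. When sterols are scarce SREBP-2 is released, enters the nucleus and drives genes of cholesterol synthesis and uptake, INSIG1 included. In 250 bases before to 50 after the start, CCAAT was found for 18 of the 20 listed genes that had a window, against 39.7% of 27305 genes in the table. It was found for all 10 of those lower in every pair and for 8 of the 10 others, so it did not part the members by their response. TCACNCCAC was found for 1 of the 20 (SREBF2), against 1.39% of genes.

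Of 26 measured genes of cholesterol synthesis and uptake, 15 passed as lower (57.7%, against 8.73% of all tested genes). Only 1 passed as higher (3.85%, against 12.2%), and 14 were lower in all 8 pairs, as were 5.75% of all tested genes. The median was -0.49, with all 8 pair medians below 0 and medians from -0.61 to -0.42 over the alternatives run. INSIG1 in WT cells had 303, 537, 542 and 974 CPM in DMSO and 125, 151, 166 and 233 CPM in EZ. In DKO cells it had 208, 336, 384 and 429 CPM in DMSO and 103, 104, 106 and 161 CPM in EZ. Each EZ library was below its own DMSO partner, while the ranges of all DMSO and all EZ libraries overlapped. The averaged change was -1.61 ± 0.10 (adjusted p = 7.84e-06).

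Along the pathway, the early enzyme HMGCS1 fell by 0.69. MVK, MVD, IDI1 and FDPS, which make and join the isoprenoid units, fell by 0.66, 0.71, 0.56 and 0.69. FDFT1 and SQLE, the first steps committed to sterols, fell by 0.81 and 0.69, and the later enzymes LSS, HSD17B7 and DHCR7 by 0.51, 0.81 and 0.47. SREBF2 itself fell by 0.47. The gene that rose was TM7SF2, a sterol reductase, by 0.66 ± 0.09 in all pairs. DHCR7 did not pass without the block (-0.49, adjusted p = 0.0543), SREBF2 in the 3 pairs with high RN7SL1 (-0.25, 0.151) or IDI1 in the 5 others (-0.66, 0.091). None of these genes passed the test of a difference between the genotypes.

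Of 23 measured genes of fatty acid synthesis, 8 passed as lower (34.8%, against 8.73% of all tested genes). Another 3 passed as higher (13%, against 12.2%), and the median was -0.17. All 8 lower genes were lower in every pair. SCD, which puts the first double bond into fatty acids, had 1590 to 7360 CPM in DMSO (median 2760) and 1240 to 2400 CPM in EZ (median 1550), a change of -0.94 ± 0.13. FADS2, FADS1, FASN and ACLY fell by 0.89, 0.67, 0.65 and 0.58. The relative SCD5 rose by 0.38 ± 0.06 in 7 pairs and ELOVL1 by 0.35 ± 0.05 in all pairs. Without the block FADS2 (adjusted p = 0.0564) and SCD5 (0.156) did not pass, and in the 3 pairs with high RN7SL1 SCD5 (0.23, adjusted p = 0.285) and ELOVL1 (0.20, 0.248) did not.

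**Figure D3:**
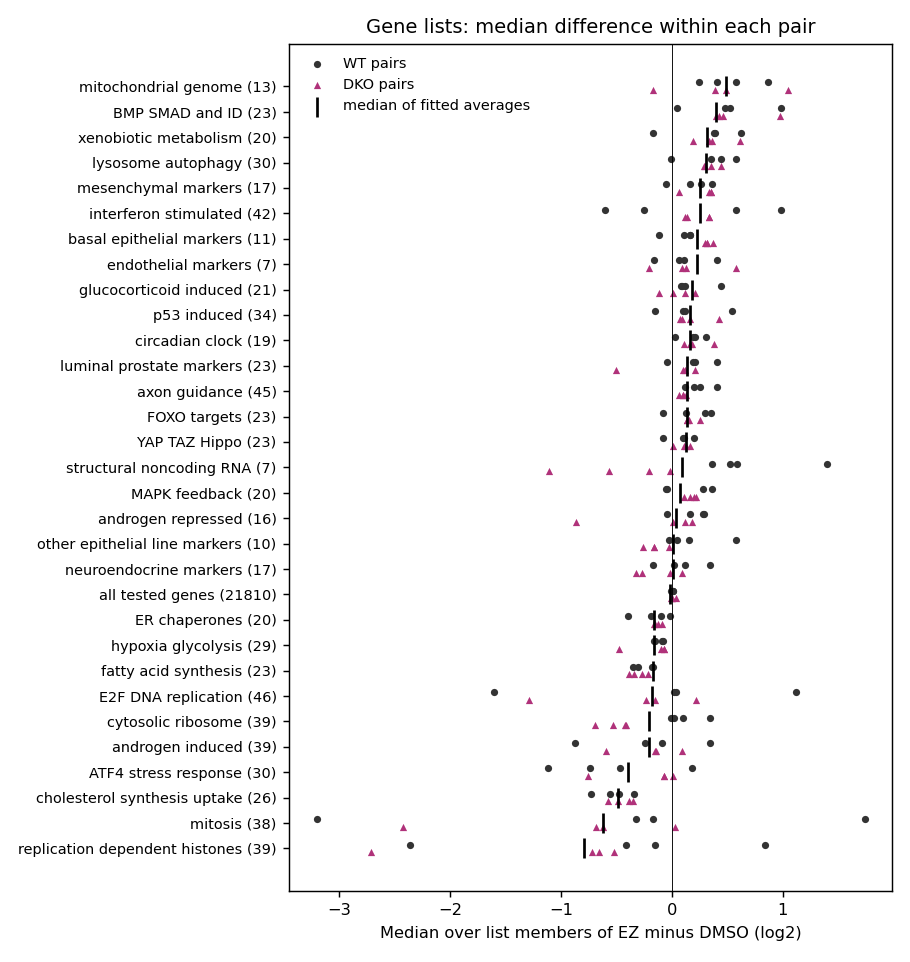
Median over the members of each list of the difference EZ minus DMSO (log2, horizontal axis) in the 4 WT pairs (circles) and the 4 DKO pairs (triangles), with the median of the fitted averages as a bar and the number of members measured in brackets. The cholesterol and fatty acid lists lie below 0 in all 8 pairs, whereas mitosis genes spread from -3.20 to 1.74.

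Genes of the ATF4 programme support amino acid uptake and synthesis under stress. Of 30 members 12 passed as lower (40%, against 8.73% of all tested genes) and 0 as higher (against 12.2%). The median was -0.40. Members lower in all pairs included SLC7A5, a transporter of large neutral amino acids, at -0.89 ± 0.12, MTHFD2, a mitochondrial folate enzyme, at -0.86 ± 0.13, and the serine pathway enzymes PSPH and PHGDH at -0.47 ± 0.10 and -0.39 ± 0.07. ASNS, asparagine synthetase, fell by 0.60 in 7 pairs, and did not pass without WT pair 2 (adjusted p = 0.0607) or DKO pair 4 (0.051). PSPH did not pass without the block (adjusted p = 0.0539), and in the 3 pairs with high RN7SL1 ASNS (-0.27, adjusted p = 0.468) and PHGDH (-0.34, 0.0889) did not. The pairs were uneven, with a list median of 0.18 in WT pair 1, and the 3 pairs with high RN7SL1 had a median of -0.02 against -0.64 in the 5 others.

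Lysosomal and autophagy genes rose: 19 of 30 passed as higher (63.3%, against 12.2% of all tested genes) and 0 as lower (against 8.73%). Of the 30, 7 were higher in all pairs, as were 7.95% of all tested genes. The median was 0.31, and without the block 7 of the 30 passed. The proteases CTSB and CTSD rose by 0.67 ± 0.06 and 0.46 ± 0.08, the sterol carrier NPC2 by 0.67 ± 0.09, and the membrane protein LAMP2 by 0.53 ± 0.07. TFEB, a transcription factor of lysosomal genes, rose by 0.48 ± 0.13 in 7 pairs. Without the block CTSD (adjusted p = 0.24) and NPC2 (0.329) did not pass, and TFEB did not without DKO pair 2, 3 or 4 (0.0568 to 0.0699).

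The locus with the deepest fall lay close to INSIG1 and was singled out after its values were seen. HTR5A-AS1 (chr7:155067067-155071557, minus strand), an antisense transcript of the serotonin receptor gene HTR5A, had 26, 53, 5 and 44 raw counts in the WT DMSO libraries and 11, 50, 10 and 15 in the DKO DMSO libraries. It had 0 counts in all 8 EZ libraries. Thus HTR5A-AS1 passed the count filter through DMSO libraries only. Taking 3 counts over the EZ group as the limit a count of 0 allows, the pooled DMSO level was 69.5 times that limit. The limit covers counting error in EZ only, and the DMSO level was taken without error, although its counts ran from 5 to 53. HTR5A (chr7:155070324-155087392, plus strand) had 117 counts over the DMSO libraries and 2 over the EZ libraries. Whether counting used strand is not stated, so reads of this pair cannot be told apart where the genes overlap. INSIG1-DT, a divergent transcript beside INSIG1, fell by 0.95 with every pair lower. Other tested genes within 500 kb, PAXIP1 and RBM33 among them, did not pass, except EN2 at -0.47 ± 0.13 in 7 pairs. The EN2 call was lost without the block (adjusted p = 0.149) and without WT pair 3 or DKO pair 2 or 4 (0.0629 to 0.0714).

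The UGT2B genes of chromosome 4 encode enzymes that attach glucuronic acid to androgens and other steroids. Of 11 tested members, pseudogenes included, 7 were lower in all 8 pairs, as were 5.75% of all tested genes. UGT2B11 had 53.6 to 215 CPM in DMSO (median 122) and 2.46 to 97.4 CPM in EZ (median 33.8), a change of -2.04 ± 0.28 (adjusted p = 0.00359). UGT2B28 and UGT2B4 changed by -2.39 ± 0.29 and -2.35 ± 0.29, each with no overlap between treatments. UGT2B17, in contrast, rose by 0.56 ± 0.11 in 7 pairs, and UGT2B15 at -0.23 ± 0.11 did not pass (adjusted p = 0.171). In the 3 pairs with high RN7SL1 UGT2B11 at -2.78 did not pass (adjusted p = 0.19), and UGT2B17 did not there (0.34, adjusted p = 0.722) or without the block (0.359). These genes are near copies of each other, so the division of reads among them is uncertain.

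Other leading genes that fell in all pairs included WWTR1, which encodes TAZ, a relative of YAP. WWTR1 had 5.18 to 8.89 CPM in DMSO and 1.08 to 2.43 CPM in EZ, a change of -2.01 ± 0.15 (adjusted p = 1.04e-05). YAP1 changed the other way, by 0.56 ± 0.12 in 7 pairs. TNFRSF19, a receptor of the TNF family, fell from 62.8 to 256 CPM in DMSO to 13.6 to 57.5 CPM in EZ (-2.31 ± 0.45, adjusted p = 0.0152). That call was lost without WT pair 2 (adjusted p = 0.0509) and in the 3 pairs with high RN7SL1 (-3.47, adjusted p = 0.141). PRLR, the prolactin receptor, fell by 1.58, ZPLD1 by 1.62, the transporter SLC22A10 by 1.73 and LRRC31 by 1.54. ZPLD1 did not pass in the 3 pairs with high RN7SL1 (-1.89, adjusted p = 0.197). AGR2, a disulfide isomerase of secretory epithelia, fell by 1.46, a call lost without the first pairs of both genotypes (adjusted p = 0.0637) and in the 5 pairs with low RN7SL1 (0.0681).

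Of 39 measured genes that androgen is known to induce, 5 passed as higher (12.8%, against 12.2% of all tested genes) and 4 as lower (10.3%, against 8.73%). The median was -0.21, with 6 of 8 pair medians below 0 and medians from -0.58 to -0.08 over the alternatives run. Without the block 2 passed as higher and 8 as lower, and with library totals 4 and 6. KLK3, which encodes prostate-specific antigen, had 83.4, 41.7, 44.2 and 15.5 CPM in WT DMSO and 15.1, 21.8, 21.3 and 21 CPM in WT EZ. In DKO cells KLK3 had 11, 2.80, 1.98 and 1.18 CPM in DMSO and 0.719, 1.10, 1.83 and 0.944 CPM in EZ. It was lower in 7 of 8 pairs, WT pair 4 being the exception, and the averaged change of -1.15 ± 0.50 did not pass (adjusted p = 0.165), whereas without the replicate block it was -1.51 (adjusted p = 0.0479). FKBP5, a co-chaperone of steroid receptors, had a change of -0.29 ± 0.22 that did not pass (adjusted p = 0.420), and of -0.95 in the 3 pairs with high RN7SL1 (adjusted p = 0.00808).

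TMPRSS2, a membrane protease, was higher in all pairs. In WT cells it had 497, 282, 404 and 289 CPM in DMSO and 605, 514, 676 and 601 CPM in EZ, and in DKO cells 84.7, 26.5, 23.9 and 23.1 CPM in DMSO and 110, 43.3, 61.9 and 64.0 CPM in EZ. The change was 0.86 ± 0.13 (adjusted p = 0.00164), and without the replicate block it did not pass (adjusted p = 0.105). The kinase gene SGK1 rose by 0.94 ± 0.14 and the kallikrein KLK4 by 0.77 ± 0.13, which was 0.26 and did not pass in the 3 pairs with high RN7SL1 (adjusted p = 0.3). Lower in all pairs were ADAM7 at -2.58 ± 0.30, from a mean of 2.80 CPM in DMSO, UAP1, an enzyme of sugar nucleotide synthesis, at -0.78 ± 0.06, and ACSL3, which activates fatty acids, at -0.77 ± 0.10. Of 16 androgen-repressed genes 7 passed as higher (43.8%, against 12.2% of all tested genes) and 4 as lower (25%, against 8.73%). Of the 4, 3 were UGT2B10, UGT2B11 and UGT2B28. UGT2B10, at -0.70 in the averaged fit, did not pass without the block (adjusted p = 0.482) or without any of the 4 WT pairs or DKO pair 4 (0.0558 to 0.0834). The list's median of 0.04 changed sign with upper-quartile scaling and library totals.

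**Figure D4:**
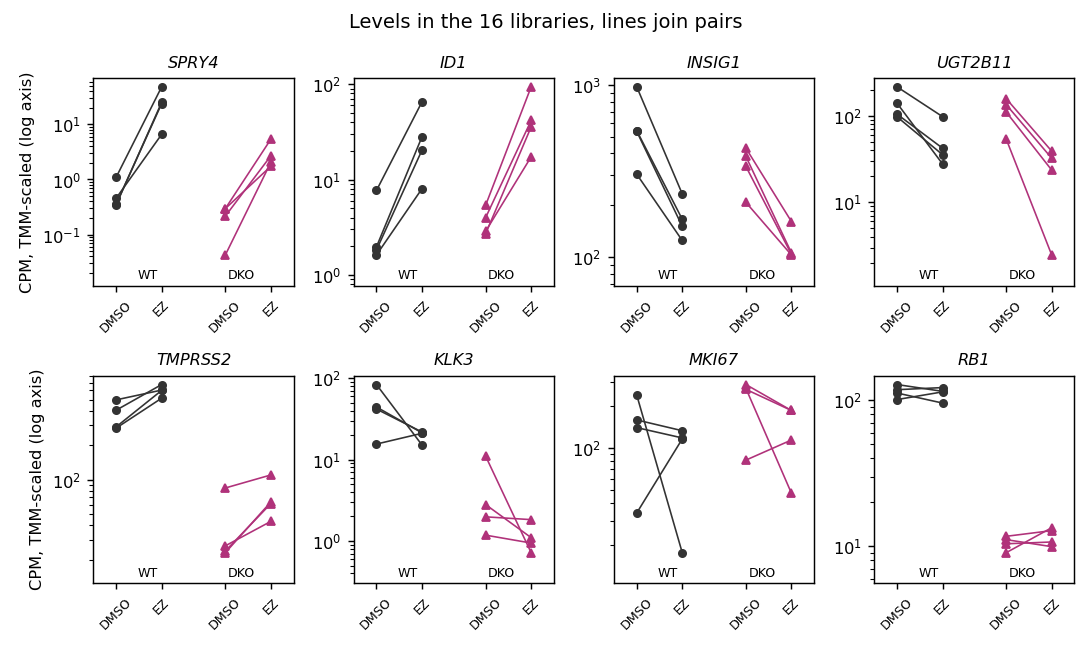
Level (TMM-scaled CPM, log axis) of 8 genes in DMSO and EZ libraries, WT in dark circles and DKO in purple triangles, with lines joining the libraries of a pair. SPRY4 and ID1 rise and INSIG1 and UGT2B11 fall in every pair, whereas the lines of KLK3 and MKI67 cross and RB1 is flat.

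Cell cycle genes varied widely between pairs. Of 38 mitosis genes and 46 genes of E2F and DNA replication, 0 passed in edgeR's test in either direction, and 0 had 1 sign in all pairs. The WT pair medians of the mitosis list were -3.20, -0.32, -0.17 and 1.74, and the DKO pair medians -2.42, -0.68, -0.62 and 0.03. MKI67, a marker of proliferating cells, differed by -3.77 (log2) in WT pair 1, where it went from 240 to 17.6 CPM, and by 1.77 in WT pair 4, and its averaged change of -0.62 ± 0.66 did not pass (adjusted p = 0.572). The mitosis median of -0.62 was -0.02 without the first pairs, 0.10 in the 5 pairs with low RN7SL1 and -2.07 in the 3 others. The median of the E2F and replication list was -0.18 and ran from -1.14 to 0.28 over the alternatives, and without the first pairs 4 of its genes passed as higher. CDKN1A, the p21 inhibitor of cyclin-dependent kinases, had a change of 1.06 ± 0.37 in 7 pairs and did not pass (adjusted p = 0.0942), whereas DESeq2 gave an adjusted p of 0.0112 and edgeR without robust weighting 0.0256. CDKN1A changed by 2.13 in the 3 pairs with high RN7SL1 (adjusted p = 0.00678).

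Among 34 known p53-induced genes, 8 passed as higher (23.5%, against 12.2% of all tested genes) and 0 as lower (against 8.73%). With library totals 7 passed as higher and 2 as lower. BTG2, an antiproliferative gene, rose by 1.25 in WT and 1.20 in DKO cells (adjusted p of the difference 0.963). The stress sensor SESN1 rose by 1.31 in WT and 0.57 in DKO cells (adjusted p of the difference 0.0489). SESN1 is also a FOXO target. Of 23 such genes 7 passed as higher (30.4%) and 1 as lower (4.35%), and with library totals 5 and 4. PIK3IP1, an inhibitor of phosphoinositide 3-kinase, rose by 0.82 ± 0.07 with no overlap, from 11.8 to 19.7 CPM in DMSO to 21.8 to 40.6 CPM in EZ.

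Of 20 measured genes of drug metabolism 7 rose (35%, against 12.2% of all tested genes) and 0 fell (against 8.73%). The median was 0.32, and 9 of the 20 had a mean level below 1 CPM. CYP1A1, the classical target of the aryl hydrocarbon receptor, went from a median of 0.203 to 1.41 CPM (2.39 ± 0.30, adjusted p = 0.000221) with every pair higher. EPHX1, an epoxide hydrolase, rose by 0.67 ± 0.10, from 257 to 702 CPM in DMSO to 455 to 931 CPM in EZ.

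Glycolytic and hypoxia genes were lower for 9 of 29 members (31%, against 8.73% of all tested genes). They were higher for 1 (3.45%, against 12.2%), EGLN3, an oxygen sensor, at 0.96 ± 0.12 with no overlap. Without the block 4 passed as lower. Of mesenchymal markers, 5 of 17 rose (29.4%, against 12.2% of all tested genes) and 0 fell (against 8.73%). VIM, the filament protein vimentin, changed by 0.50 ± 0.12 in all pairs, a call lost without the block (adjusted p = 0.126) and in the 3 pairs with high RN7SL1 (0.62, adjusted p = 0.287), and FN1 by 0.64 ± 0.10, lost in those 3 pairs (0.63, adjusted p = 0.501). Of 17 measured neuroendocrine markers 2 were higher (11.8%) and 1 lower (5.88%), against 12.2% and 8.73% of all tested genes. Their median of 0.01 changed sign under 8 alternatives.

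When the drug effect of each genotype was tested within the same fit of all 16 libraries, 2641 genes passed in WT and 1691 in DKO pairs. Of the 4565 genes past the threshold on average, 906 passed in both genotypes, 1458 in WT only, 658 in DKO only and 1543 in neither. The difference of the effect between genotypes passed for 39 genes (0.179%), with 2145 at an unadjusted p under 0.05, and 8 of the 39 had 1 sign in all pairs. This count is unsteady, at 0 without the replicate block, 195 with DESeq2 and 0 to 70 when 1 pair was left out.

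SEMA3C showed the lowest adjusted p of this difference. It had 43.0, 56.6, 47.2 and 72.3 CPM in WT DMSO and 219, 370, 343 and 334 CPM in WT EZ, against 27.4, 38.9, 32.0 and 38.0 CPM in DKO DMSO and 60.4, 90.1, 78.9 and 87.1 CPM in DKO EZ. The rise was 2.53 in WT and 1.21 in DKO cells (adjusted p = 0.0149). PLOD2, a collagen lysine hydroxylase, fell by 3.79 in WT and by 0.84 in DKO cells (adjusted p = 0.0293). Its levels were 6.84 to 17.2 CPM in WT DMSO, where DKO DMSO had 16.6 to 51.4, and 0.550 to 0.811 CPM in WT EZ, where DKO EZ had 13.6 to 24.8. DAB1, an adaptor of reelin signalling, rose by 3.03 in WT and 0.70 in DKO cells. The collagen receptor DDR2 fell by 1.83 and 0.53, and KALRN rose by 0.94 and 0.14. Their averaged changes did not pass without the block for DAB1 (adjusted p = 0.0759), in the 3 pairs with high RN7SL1 for DDR2 (-0.88, adjusted p = 0.116) and KALRN (0.32, 0.336), or with 1 drug term for both genotypes for PLOD2 (0.0533).

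Ribosomal protein genes had medians of opposite sign in the genotypes. Of the 39 genes, 13 were ribosomal protein genes or pseudogenes. Over 80 tested ribosomal protein genes the median was 0.14 in WT and -0.44 in DKO cells, and -0.14 on average. On average 29 of them passed as lower, but only 3 had 1 sign in all pairs. In the list of 39 cytosolic ribosome genes 20 passed as lower (51.3%, against 8.73% of all tested genes), and 1 did without the block. The 7 measured structural noncoding RNAs also had opposite medians, 0.50 in WT and -0.57 in DKO cells. RPL5 lay just outside the rule, lower in 7 of 8 pairs (-0.50 ± 0.06, pair differences from -0.87 to 0.04), as did COL5A2 on the higher side (0.93 ± 0.11, from -0.02 to 1.63). RPL5 did not pass without the block (adjusted p = 0.0965), nor COL5A2 in the 3 pairs with high RN7SL1 (0.50, adjusted p = 0.147).

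**Figure D5:**
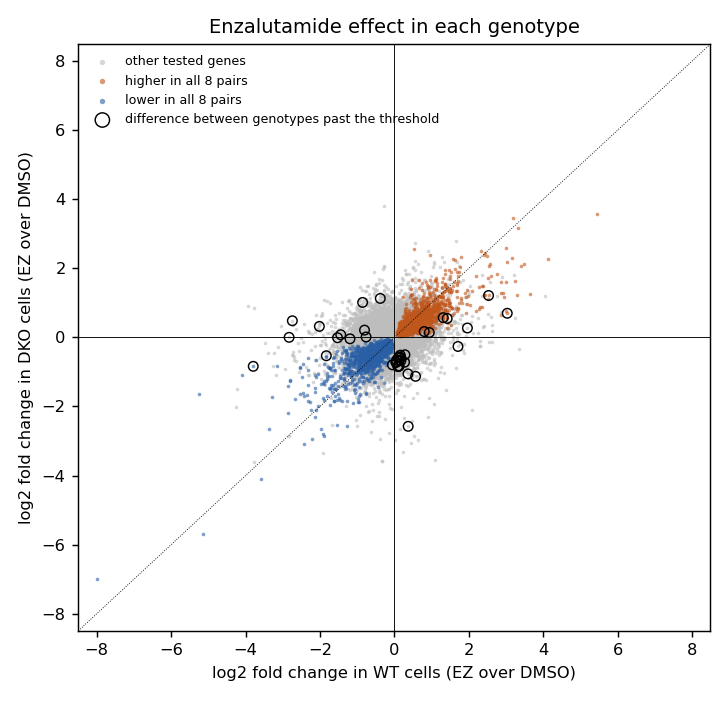
Log2 fold change of EZ over DMSO in DKO cells (vertical axis) against WT cells (horizontal axis) for all 21810 tested genes, with genes higher or lower in all 8 pairs in colour and the 39 genes whose effect differed between genotypes circled. The cluster of circles just below 0 on the vertical axis and just right of 0 on the horizontal axis holds mainly ribosomal protein genes.

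The 2988 genes were not spread evenly over gene classes. Protein-coding genes made up 78.8% of them against 65.8% of the genes tested. Of protein-coding genes 11.1% were higher and 5.33% lower in all pairs. Of antisense genes 2.09% were higher and 8.71% lower, and of lincRNAs 2.08% and 8.32%. With library totals the protein-coding shares came to 8.96% and 7.44%, and the antisense shares to 1.73% and 9.37%. Among genes with a mean of 6.70 to 43.5 CPM, 13.1% of protein-coding genes were higher and 5.72% lower, against 6.71% and 23.2% of 164 antisense genes. Whether counting used strand is not stated, so reads of antisense genes and of the genes they overlap cannot be told apart. Noncoding genes named by the rule, which asks for at least 5 CPM, included HCP5, a transcript of the HLA region, at 1.56 ± 0.21, and ALOXE3P1, a pseudogene on chromosome 17, at -2.08 ± 0.16.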

How the data were processed

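Total RNA with ribosomal RNA reduction was sequenced from 16 samples, grouped by title. The authors deposited raw counts per Ensembl gene. STAR 2.7.3a and GRCh38 are named, with no role, in the submitters' processing notes. For the counting tool, strand setting and annotation release, the sources used here give no name. Symbols came from the gene table (42009 of 60676 IDs) and coordinates from GENCODE v29 (58503 IDs).

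The analysis used edgeR 4.0.16 under R 4.3.3: filterByExpr (minimum count 10, minimum total 15), TMM scaling, and a quasi-likelihood F-test with robust dispersion, 8 pair blocks and 1 drug term per genotype (6 residual degrees of freedom). The contrast was the mean of both drug effects, with Benjamini-Hochberg adjustment at 0.05 over 21810 genes. Log2 changes are given ± SE, and pair differences use log2 CPM with a prior count of 2. Signs were taken from TMM-scaled CPM. The steps were also run on simulated counts with the same drug effect in every pair, which cannot show how uneven pairs affect the calls.

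The replicate numbers come from the titles. Deviations from group means correlated within every same-numbered pair (r = 0.326 to 0.664), so the numbers were taken to pair the samples, although WT DMSO 2 correlated more with WT EZ 3 (0.511). Replicates differed by more than sampling noise (chi-square per degree of freedom 5.37 to 104).

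The rule, the 31 gene lists (864 of 869 entries matched) and the naming rule were chosen with earlier results of these data known, and no list was tested. Named genes were the 12 highest and 12 lowest protein-coding genes with 1 sign in all pairs and at least 5 CPM, up to 4 members per list, a fixed panel, genes that differed between genotypes, and 2 genes just outside the rule. Other list members are named by role. A few are left out here. Alternatives were other blocks, scalings and filters, DESeq2 1.42.0, and pairs left out.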

Additional observations from a re-analysis of the deposited data

Results flagged for a closer look

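The pair differences of 152 named genes were searched for a pair far from the other 7 (Dixon's criterion, 95% level), which chance alone would meet in about 1 of 20 genes; 14 genes met it. WT pair 1 stood apart for SLIT1 (4.84, next 3.02), MATN2 (3.99, next 2.58) and VIM (1.38, next 0.68). DKO pair 1 stood apart for UGT2B11 (-4.41, next -2.32), WWTR1 (-2.96, next -2.11), UGT2B15 (-1.30, next -0.22), UGT2B17 (-0.51, next 0.41), SEMA6A (2.74, next 1.56), CAT (-0.88, next -0.41), which encodes catalase, and GATA2 (1.68, next 1.05), a partner factor of the androgen receptor. WT pair 4 stood apart for AGR2 (-3.38, next -1.71), IDI1 (-1.60, next -0.57), SQLE (-1.21, next -0.73) and SEMA3F (1.16, next 0.91). The same pairs 1 had the lowest mitosis medians, -3.20 and -2.42, and high RN7SL1, and the part of either in these values was not tested.

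A difference of the drug effect between genotypes passed edgeR's test for 8 named genes. The effect in DKO minus that in WT was 2.96 for PLOD2, 1.30 for DDR2 and 1.01 for DSC3, a desmosomal cadherin. It was -2.34 for DAB1, -1.32 for SEMA3C, -0.87 for EFNA5, -0.80 for KALRN and -0.74 for SESN1.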

How the results depend on the processing

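Calls of the averaged effect (4565 genes, 2660 higher, 1905 lower) came to 2031, 1306 and 725 without the replicate block, to 2593, 1388 and 1205 in the 3 pairs with high RN7SL1, and to 2729, 1649 and 1080 in the 5 others, both with 1 common drug term (4167 calls in all 8 pairs). Without a count filter 2962 were lower. Leaving out 1 pair gave 3153 to 5489 calls, 1866 to 3287 higher and 1153 to 2202 lower. Lower calls fell to 1153 without WT pair 2, 1261 without WT pair 3 and 1232 without DKO pair 3.

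Genes with 1 sign in all pairs were more with fewer pairs, where filter and scaling were redone and fewer signs had to match. They were 3211 to 4580 with 1 pair left out (1850 to 2671 higher, 1332 to 1909 lower, the most without WT pair 4), 4668 with 2070 lower without both first pairs, 10926 (5139 and 5787) in the 3 pairs and 5794 (3054 and 2740) in the 5.

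Differences between genotypes (39) numbered 0 without the replicate block, 1 with a block by number shared by both genotypes, 195 with DESeq2, 472 without a filter, 8 without robust weighting, 65 without both first pairs and 0 to 70 with 1 pair left out. The cause was not tested. COL3A1 reversed, from 0.89 to -0.11 in the 3 pairs (adjusted p = 0.922). Of the other values of named genes, 2901 kept their side of the threshold, 263 no longer passed and 18 newly passed. Of list medians 640 moved by less than the spread between pairs and 11 by more. Of the 5453 with the lowest levels (at most 0.913 CPM) 141 passed as higher and 294 as lower, against 1161 and 418 of the 5453 with the highest.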

Other observations

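Transcripts of the mitochondrial genome rose for 10 of 13 genes (76.9%, against 12.2% of all tested genes), with a median of 0.49. MT-CO1, a subunit of cytochrome oxidase, had 2670 to 7370 CPM in DMSO and 4230 to 13300 CPM in EZ (0.66 ± 0.09, adjusted p = 0.000547, higher in all pairs). Of the 13 genes 2 were higher in every pair, 6 passed with library totals, 0 without the block (MT-CO1 at an adjusted p of 0.074) and 3 without both first pairs, and the median over the genes was below 0 in DKO pair 2 (-0.17).

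Interferon-stimulated genes were higher for 7 of 42 members (16.7%, against 12.2% of all tested genes) and lower for 0, with a median of 0.25. IFITM3, which restricts virus entry, rose by 0.63 ± 0.08 and STAT2, the interferon signal transducer, by 0.54 ± 0.08, both in all pairs. Without the block IFITM3 (adjusted p = 0.382) and STAT2 (0.0676) did not pass. The median was -0.15 in the 3 pairs with high RN7SL1 and 0.38 in the 5 others, and no member passed without the block.

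Clock genes moved in both directions: 5 of 19 rose (26.3%, against 12.2% of all tested genes) and 1 fell (5.26%, against 8.73%). PER2, a repressor of the clock, had 21.3 to 26.4 CPM in DMSO and 13.9 to 18.9 CPM in EZ, with no overlap (-0.63 ± 0.07, adjusted p = 7.84e-05). PER1 rose by 0.43 ± 0.09, NR1D1 by 0.82 ± 0.13 and NFIL3 by 1.20 ± 0.20. PER1 did not pass without the block (adjusted p = 0.0645), nor NFIL3 in the 5 pairs with low RN7SL1 (0.0645). Of replication-dependent histone genes, whose messages lack a poly(A) tail, 6 of 39 were lower (15.4%, against 8.73% of all tested genes). There were 0 higher (against 12.2%), and 2 were lower in all pairs, as were 5.75% of all tested genes. The median was -0.79, from -1.85 to -0.25 over the alternatives run. The pair medians were -2.36, -0.41, -0.15 and 0.84 in WT and -2.71, -0.66, -0.72 and -0.52 in DKO pairs, and the pairs 1 were also the lowest for mitosis genes. Their near-identical copies make the division of reads among them uncertain.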
